A study of Mus musculus with 12 samples.

Results

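The 8 genes described here are ones that the tumour suppressor p53 is known to switch on in growth arrest and metabolism, followed through the loss of the arginine methyltransferase PRMT5: Cdkn1a, Ccng1, Phlda3, Sesn2, Trp53inp1, Ddit4l, Ak1 and Dcxr. They were chosen by name and make up 8 of the 2477 different genes listed as changed in either cell type. RNA was sequenced in 4 groups of 3 libraries: neural progenitor cells (NPC) with 4-hydroxytamoxifen (4-OHT), NPC with ethanol, mouse embryonic fibroblasts (MEF) with 4-OHT and MEF with ethanol. Cells of all 4 groups carried the genotype Prmt5 F/FER on a mixed C57BL/6 X 129S1/SvlmJ background and came from E14.5 embryos, the NPC from dissociated cortex grown as neurospheres with EGF and FGF and treated on day 4, the MEF at passage 1 after growth to confluence. The dose of 4-OHT was 50 nM for 24 h before splitting, and controls received the same volume of ethanol. No group with 4-OHT lacked the conditional allele, so the effects of 4-OHT and of Prmt5 loss cannot be told apart. How the replicates were derived is not stated in the labels.

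The deposited expression tables hold 1 RPKM value (reads scaled to transcript length and library size) for each group, so there is no spread between libraries to report. Library totals are not stated, so depth is unknown. The tables list only genes with an unadjusted Cuffdiff p-value under 0.05 and a change of over 1.5-fold, 2416 entries in NPC and 111 in MEF. Prmt5 itself stood at 4.92 RPKM with 4-OHT and 33.4 RPKM with ethanol in NPC, and at 3.76 RPKM with 4-OHT and 20.96 RPKM with ethanol in MEF. In bulk RNA, fewer cells of a type and less RNA per cell cannot be told apart. Of 8 progenitor markers only Hes5, a Notch effector, is listed in NPC, at 4.77 RPKM with 4-OHT and 15.8 RPKM with ethanol, and of 8 fibroblast markers none is listed in MEF, so the labelled cell types could not be checked further against levels of their markers.

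When cells are stressed, p53 is freed from its inhibitors MDM2 and MDM4 and binds DNA at a response element of paired half-sites near its target genes. The protein p21, product of Cdkn1a, then blocks cyclin-dependent kinases and leaves the pocket proteins able to hold cell cycle genes silent in the DREAM complex. Other targets restrain AKT and mTORC1 signalling, limit oxidative damage or adjust energy metabolism, and in embryonic neural progenitors the same factor decides between arrest, differentiation and death.

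Promoter sequence is shown for the members whose start regions held a match to the p53 response element, since these are the letters through which the factor is known to act. RefSeq windows on GRCm38.p6, from 250 bases before to 50 bases after each annotated start, were found for 7 of the 8 genes (11 windows); Trp53inp1 was not matched. Capitals mark the matches to the p53 response element (20 letters, up to 3 mismatches, no spacer) and exact matches to its half-site (10 letters). The element reads the same on both strands in its consensus form, so 1 scan covers both, and a half-site may lie inside an element.
Cdkn1a, upstream start, chr17:29090729-29091028, plus strand: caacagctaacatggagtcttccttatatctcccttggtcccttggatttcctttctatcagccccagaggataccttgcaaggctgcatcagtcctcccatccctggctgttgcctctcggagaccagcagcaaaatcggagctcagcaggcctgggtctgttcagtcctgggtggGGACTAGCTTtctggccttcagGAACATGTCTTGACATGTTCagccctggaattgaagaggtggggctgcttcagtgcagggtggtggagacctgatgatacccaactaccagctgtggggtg
Ccng1, chr11:40755237-40755536, minus strand: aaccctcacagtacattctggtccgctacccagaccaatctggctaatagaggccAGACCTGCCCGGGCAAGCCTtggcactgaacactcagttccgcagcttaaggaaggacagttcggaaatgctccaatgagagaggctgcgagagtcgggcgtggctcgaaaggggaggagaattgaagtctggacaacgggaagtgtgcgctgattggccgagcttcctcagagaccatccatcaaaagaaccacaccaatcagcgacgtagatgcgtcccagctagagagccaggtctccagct
Ddit4l, chr3:137623422-137623721, plus strand: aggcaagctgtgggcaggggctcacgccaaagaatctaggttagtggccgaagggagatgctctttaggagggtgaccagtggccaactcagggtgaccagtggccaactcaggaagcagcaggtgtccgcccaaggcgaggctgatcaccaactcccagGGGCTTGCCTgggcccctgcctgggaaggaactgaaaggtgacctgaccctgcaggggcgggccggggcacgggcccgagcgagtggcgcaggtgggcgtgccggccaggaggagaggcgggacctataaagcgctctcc

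The upstream Cdkn1a window holds the element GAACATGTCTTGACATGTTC from position -51 relative to the start, and a separate half-site from position -73. The Ccng1 window holds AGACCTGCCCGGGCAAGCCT from position -195, whose 3′ part, GGGCAAGCCT, is an exact half-site. Each of these elements departs from the consensus by 1 mismatch. An element with up to 1 mismatch was present in 29 of all 32851 mouse windows (0.0883%), a limit set after the values were seen, and one with up to 3 mismatches in 6.29%. Ddit4l had no such element but 1 exact half-site, GGGCTTGCCT, from position -90. Exact half-sites were found in windows of 3 members (Cdkn1a, Ccng1 and Ddit4l) and in 9.55% of all 27025 genes in the table. The downstream Cdkn1a window and those of Phlda3, Sesn2, Ak1 and Dcxr held neither, which says only that these letters are not in these 300 bases. Cdkn1a and Ccng1 were also the members with the highest RPKM in both NPC groups, an observation on 2 genes that was made after the values were seen.

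**Figure D1:**
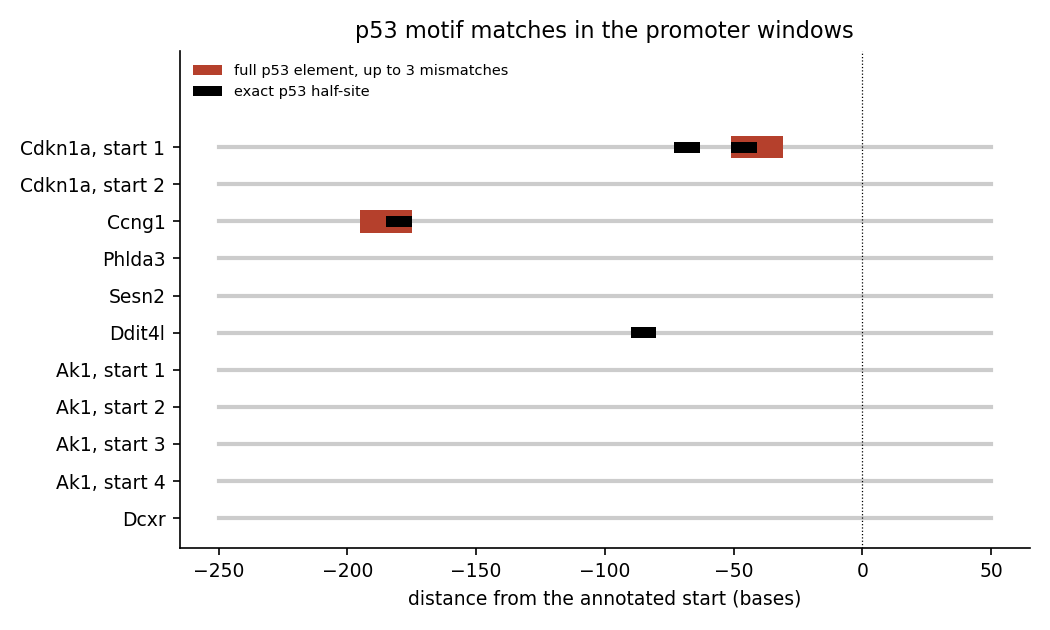
Positions of p53 motif matches in the 11 promoter windows of 7 genes, by distance in bases from each annotated start; red bars are full elements with up to 3 mismatches and black bars exact half-sites. Full elements stand at -51 in the upstream Cdkn1a window and at -195 in Ccng1, and Ddit4l has a lone half-site at -90.

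All 8 genes rose in NPC with 4-OHT. Fold changes of 4-OHT over ethanol ran from 2.26 for Phlda3 to 3.32 for Cdkn1a, with a median of 2.47, and levels with 4-OHT ran from 24.6 RPKM for Dcxr to 224 RPKM for Ccng1. Among all listed NPC genes 56.6% were higher, and 5.61% of the protein-coding names of the annotation are listed as higher. The Cuffdiff p-value was 7.99e-15 for Ccng1 and is given as 0 for the other 7 genes. With all 55341 gene names of the annotation counted as tested, the Benjamini-Hochberg adjusted Cuffdiff p was at most 3.25e-12 for each of the 8. The members were named with such results known, so their count is not independent evidence of a p53 response.

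Cdkn1a and Ccng1 held the highest levels of the members in NPC, both with 4-OHT and with ethanol. Cdkn1a, which encodes the cyclin-dependent kinase inhibitor p21, stood at 216 RPKM with 4-OHT and 65.1 RPKM with ethanol, a 3.32-fold rise (log2 fold change 1.73, with an SE of at most 0.211). Ccng1, which encodes cyclin G1, a p53 target that recruits protein phosphatase 2A to MDM2, stood at 224 RPKM with 4-OHT and 92.2 RPKM with ethanol, a 2.43-fold rise (log2 fold change 1.28, SE 0.165). The order of the pair by level was the same with 4-OHT and with ethanol, with Ccng1 above Cdkn1a, although Cdkn1a had the larger fold change of these single values. Among the 1367 genes listed as higher, Cdkn1a had the fifth and Ccng1 the seventh largest gain, 151 and 132 RPKM. Together they gained 283 RPKM, which is 4.11% of the summed gain of all genes listed as higher. By level with 4-OHT they stood at ranks 12 and 11 of the 2416 listed entries. The span of Cdkn1a overlaps that of an unnamed GENCODE gene on the other strand. Reads in any shared bases cannot be told apart, since the library kit does not mark strand. Overlap of exons was not checked.

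The members Phlda3, Trp53inp1 and Sesn2 act in signalling upstream of growth and autophagy, and formed a middle tier together with Ak1. Phlda3, whose PH-domain protein competes with AKT for membrane lipids, stood at 59.6 RPKM with 4-OHT and 26.4 RPKM with ethanol (2.26-fold). Trp53inp1, which encodes a stress-induced nuclear protein that acts with p53 and in autophagy, stood at 67.0 RPKM with 4-OHT and 25.4 RPKM with ethanol (2.64-fold). With 4-OHT Trp53inp1 was above Phlda3, and with ethanol the values of the pair lay within 1 RPKM of each other. Sesn2, which encodes sestrin 2, a leucine sensor that holds mTORC1 down through GATOR2, stood at 47.6 RPKM with 4-OHT and 19.1 RPKM with ethanol (2.49-fold). In GENCODE the span of Gm12981 overlaps that of Sesn2, so some reads could belong to either gene. Whether exons of these genes overlap was not checked.

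The metabolic members included the lowest levels and one of the largest factors. Ddit4l, whose product REDD2 inhibits mTORC1, stood at 29.7 RPKM with 4-OHT and 12.1 RPKM with ethanol (2.45-fold). Ak1, the cytosolic adenylate kinase that balances ATP, ADP and AMP, stood at 65.9 RPKM with 4-OHT and 27.3 RPKM with ethanol (2.41-fold). Dcxr, the dicarbonyl and L-xylulose reductase, stood at 24.6 RPKM with 4-OHT and 7.47 RPKM with ethanol (3.30-fold). Dcxr thus had the lowest level of the 8 in both groups but a fold change next to that of Cdkn1a, while the remaining 6 lay between 2.26-fold and 2.64-fold.

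**Figure D2:**
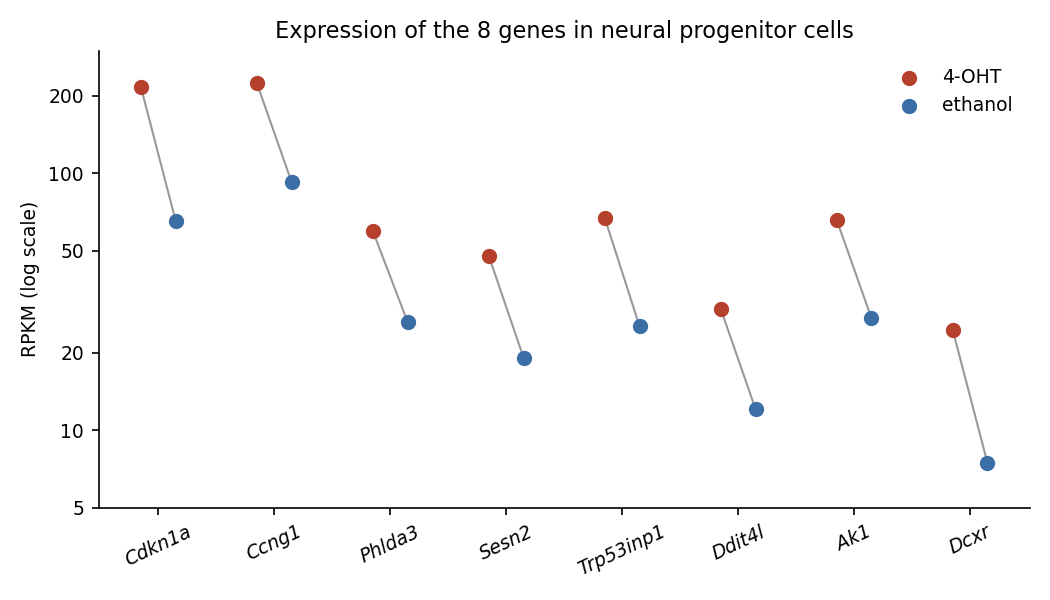
RPKM of the 8 genes in NPC on a log scale, with 1 deposited value per group (red, 4-OHT; blue, ethanol) joined by a line. Every 4-OHT value lies above its ethanol value, from 24.6 against 7.47 RPKM for Dcxr to 224 against 92.2 RPKM for Ccng1.

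The members differed far more in level than in fold change. The highest level was 9.09 times the lowest with 4-OHT and 12.3 times the lowest with ethanol, whereas the log2 fold changes spanned 0.55. Standard errors of the log2 fold changes, derived from the deposited p-values, were at most between 0.143 and 0.211. The resulting 95% intervals all included the log2 value 1.32, the lower end of the interval for Cdkn1a, whose own interval reached 2.14, and the lowest interval, for Phlda3, ran from 0.90 to 1.46. For the 7 genes with a p of 0 these intervals are the widest that the deposited p-values allow, and the differences in fold change between members were not tested. By RPKM the order from low to high began with Dcxr, Ddit4l and Sesn2 and ended with Cdkn1a and Ccng1 in both groups, and the 3 genes between them changed places, with no spread over libraries to say which neighbours differ.

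Over all 1367 genes listed as higher, the 8 members took fold-change ranks from 223 to 505, and their median log2 fold change was 1.31 against 0.99 for all of these genes. Summed over the 8 genes, expression was 734 RPKM with 4-OHT and 275 RPKM with ethanol, a gain of 459 RPKM, or 6.68% of the summed gain of all genes listed as higher. Nearest to Cdkn1a in the 2 NPC values, by distance in log2 RPKM, were Ccng1 (0.51), the endothelin receptor gene Ednrb (0.58) and the cathepsin D gene Ctsd (0.60).

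**Figure D3:**
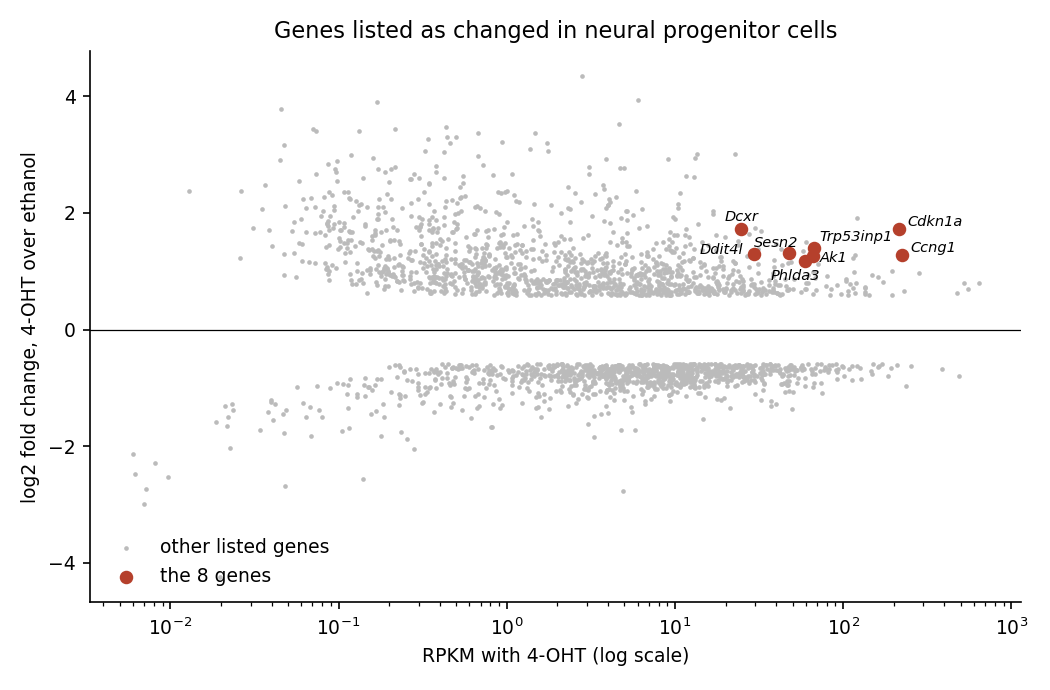
Log2 fold change of 4-OHT over ethanol against RPKM with 4-OHT (log scale) for genes listed in NPC with values above 0 in both groups; the 8 genes are red. They lie at 24.6 RPKM or more and between 1.18 and 1.73 on the log2 scale, and the empty band around 0 reflects the listing at over 1.5-fold.

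Nearly all listed genes of the rest of the pathway were higher too, over a wider range of factors. Of 47 other p53 targets and regulators, 21 are listed as higher, 1 as lower and 25 are not listed in NPC, beside 5.61% of protein-coding names listed as higher and 56.6% of listed genes that were higher. The median log2 fold change was 1.16 over the 22, against the 8 members' 1.31. Ptprv, a receptor-type phosphatase gene, stood at 2.82 RPKM with 4-OHT and 0.138 RPKM with ethanol (20.4-fold), and the stress cytokine gene Gdf15 at 5.16 RPKM with 4-OHT and 1.27 RPKM with ethanol (4.08-fold). Both factors came from levels far below those of the members. Ddit4, Aldh4a1 and Cpt1c, which act in mTORC1 restraint, proline breakdown and lipid metabolism, rose 2.60-fold, 2.25-fold and 2.20-fold to 42.5, 22.05 and 22.7 RPKM with 4-OHT, and the repair endonuclease gene Ercc5 rose 2.39-fold. The exception was Fdxr, which encodes ferredoxin reductase of the mitochondria and was named after its values were seen, at 3.25 RPKM with 4-OHT and 5.36 RPKM with ethanol (log2 fold change -0.72, Cuffdiff p of 0.000233). Members of the arrest and metabolism lists that are not listed in NPC include Btg2, Plk2, Sesn1, Tigar and Gls2. The tables do not show whether these were tested.

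The listed death genes had a larger median factor and a lower median level than the members. Of 12 in the list 8 are listed, all higher, beside 5.61% of protein-coding names listed as higher and 56.6% of listed genes that were higher. Bax, Apaf1, Aen and Siva1 are not listed. The median log2 fold change was 1.57 and the median level with 4-OHT 9.79 RPKM, against 1.31 and 62.7 RPKM for the 8 members. Perp and Fas, a desmosome gene and a death receptor gene, rose 11.6-fold and 7.56-fold to 4.64 and 9.07 RPKM with 4-OHT. Tnfrsf10b, Pmaip1, Bbc3 and Eda2r rose 3.83-fold, 3.10-fold, 2.84-fold and 2.20-fold. Ei24, named after its values were seen, had the highest level and the smallest rise of the 8. It stood at 135 RPKM with 4-OHT and 87.1 RPKM with ethanol (log2 fold change 0.64). These medians describe the listed genes, and the difference between the lists was not tested.

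**Figure D4:**
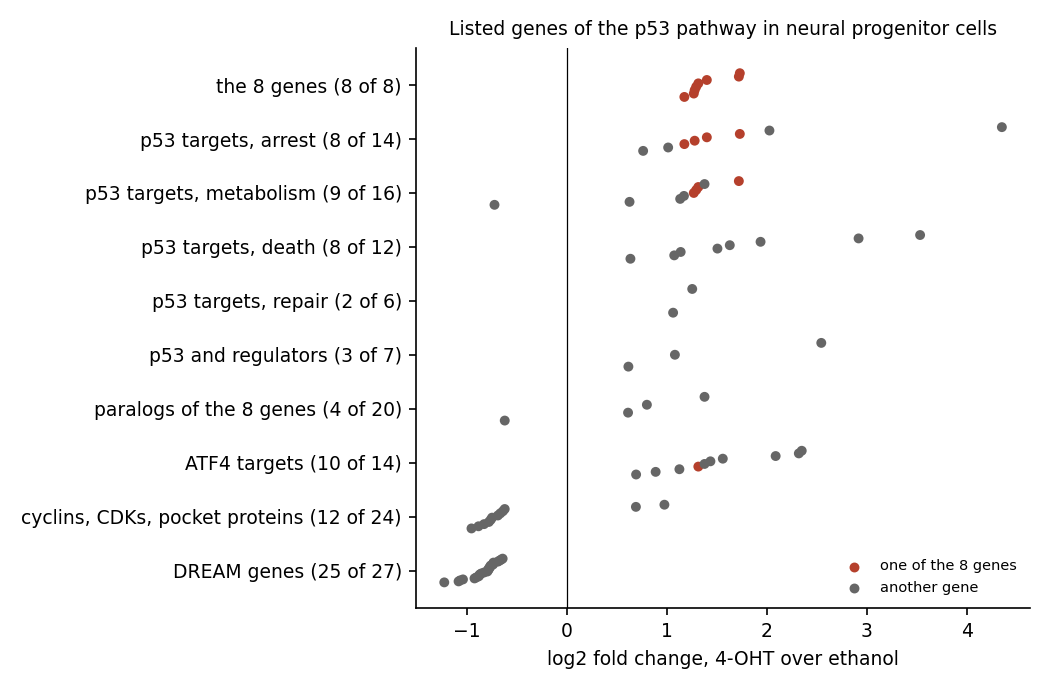
Log2 fold change of 4-OHT over ethanol for the listed NPC genes of each list, with the number listed of the number in the list beside its name; red points are the 8 genes. The 8 genes lie between 1.18 and 1.73, the death genes reach 3.53 and all 25 listed DREAM genes lie below 0.

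Most close relatives of the members are not listed. Of 20 paralogs 4 are listed in NPC, 3 higher and 1 lower, a share to set beside the 9.71% of protein-coding names that are listed at all. Ddit4, the relative of Ddit4l that encodes REDD1, rose 2.60-fold, close to the 2.45-fold of Ddit4l itself. Trp53inp2, an autophagy gene, stood at 62.02 RPKM with 4-OHT and 35.6 RPKM with ethanol (1.74-fold), and Sesn3 at 27.0 RPKM with 4-OHT and 17.7 RPKM with ethanol (1.53-fold). Their log2 fold changes were 0.80 for Trp53inp2 (SE 0.139) and 0.61 for Sesn3 (SE 0.140), against 1.40 for Trp53inp1 and 1.32 for Sesn2. Cdkn1c, the p57 relative of p21, was lower, at 0.922 RPKM with 4-OHT and 1.42 RPKM with ethanol, with a Cuffdiff p of 0.0373 that did not hold after adjustment over all gene names (bound 0.882). The relatives of Ccng1, Phlda3 and Ak1, and Cdkn1b, which encodes p27, are not listed. Of 6 other cyclin-dependent kinase inhibitor genes, Cdkn1c and Cdkn2b are listed, the second at 4.57 RPKM with 4-OHT and 2.31 RPKM with ethanol, far below Cdkn1a.

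Cell cycle genes that p21 is known to hold down were lower in NPC, and the part of p21 in this was not tested. Of 27 genes that p53 and p21 are known to hold down through DREAM, 25 are listed in NPC. All 25 were lower, beside 4.09% of protein-coding names listed as lower, a share that counts names expressed or not. The lists were chosen with earlier results of these data known, so this count is not independent evidence. The replication helicase gene Mcm7 stood at 37.3 RPKM with 4-OHT and 87.1 RPKM with ethanol, the topoisomerase gene Top2a at 75.3 RPKM with 4-OHT and 159 RPKM with ethanol, and the proliferation marker Mki67 at 50.5 RPKM with 4-OHT and 106 RPKM with ethanol. Of 24 genes of the p21 pathway, among them cyclin, kinase, pocket protein and E2F genes, 10 were lower and 2 higher. The 2 were the D-type cyclin genes Ccnd1 (adjusted Cuffdiff p of at most 0.103) and Ccnd2 (log2 fold change 0.98). Ccnb2, Cdk1, Ccna2 and Ccnb1, all lower, are in this list and among the DREAM genes, so they are counted in both. Ccnd2 stood at 284 RPKM with 4-OHT and 144 RPKM with ethanol, a gain similar to that of Cdkn1a. Ccnd1 stood at 549 RPKM with 4-OHT and 340 RPKM with ethanol, a larger gain of 209 RPKM. Ccne2 and Ccnb2 fell by 0.95 and 0.88 on the log2 scale. The AKT, AMPK and mTORC1 genes on which the products of Phlda3, Sesn2 and Ddit4l act were listed in 1 of 19 cases, beside 9.71% of protein-coding names listed at all. It was Eif4ebp1, at 59.6 RPKM with 4-OHT and 36.9 RPKM with ethanol.

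ATF4 targets and glial markers rose alongside the 8 genes, and their counts are to be read beside the 5.61% of protein-coding names listed as higher and the 9.71% listed at all. Sesn2 and Ddit4 are also known targets of ATF4, the factor of the integrated stress response. Of 14 genes in the ATF4 list 10 are listed in NPC, all higher, including Nupr1, Trib3 and Slc7a3 with 5.10-fold, 5.00-fold and 4.26-fold rises. Atf4 itself, Ddit3, Psat1 and Phgdh are not listed. Of 7 glial markers 6 are listed, all higher, with a summed level of 140 RPKM with 4-OHT and 74.3 RPKM with ethanol, most of it Aldh1l1, and with Mbp and Gfap rising 4.45-fold and 4.96-fold. Of 7 neuron markers 3 are listed, with Gria1 at 1.73 RPKM with 4-OHT and 0.188 RPKM with ethanol, Tubb3 at 9.59 RPKM with 4-OHT and 4.81 RPKM with ethanol, and Snap25 at 0.770 RPKM with 4-OHT and 1.30 RPKM with ethanol. Immune markers (2 of 6 listed) stood at 0.908 and 1.122 RPKM with 4-OHT and summed to 0.894 RPKM with ethanol, and endothelial and blood markers (2 of 7 listed) to 0.258 RPKM with 4-OHT and 0.146 RPKM with ethanol. No listed marker was at 0, the markers that are not listed have no value here, and the part of these cell types and of ATF4 in the rise of the members was not tested.

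In MEF none of the 8 genes is listed. By Cuffdiff 0 of 8 therefore met an unadjusted p under 0.05 together with a change of over 1.5-fold, beside 0.47% of protein-coding names listed in MEF and 0.246% listed as higher, and no RPKM values of the members can be given there. Absence from the table can mean no test, a p of 0.05 or more, or a small change, and the difference between the cell types was not tested for any member. In MEF 34 genes other than Prmt5 with at least 20 RPKM in the higher group are listed, 5 higher and 29 lower, with absolute log2 fold changes from 0.65 to 1.68. Of these, 3 changed by at least the log2 value of 1.18 that Phlda3 showed in NPC, the smallest of the 8, and all 3 were lower, with Cuffdiff p-values of 0.00938 or less. The largest rise among the 34 was 1.17 on the log2 scale. With the minimum set at 5 RPKM, 5 genes changed by that much, all lower, with Cuffdiff p-values up to 0.0412. The listing itself keeps these p-values under 0.05, and the members' own levels in MEF are unknown. The values therefore cannot show whether a rise of that size in a member would have been listed. Of the 55 p53 targets and regulators together, Ptprv alone is listed in MEF, at 1.65 RPKM with 4-OHT and 0.694 RPKM with ethanol (log2 fold change 1.25, Cuffdiff p of 0.00692), where its level stayed under 2 RPKM. Cbr2, the carbonyl reductase gene related to Dcxr, was the single paralog listed in MEF and stood lower, at 99.0 RPKM with 4-OHT and 178 RPKM with ethanol (Cuffdiff p of 0.0225). Apart from Prmt5, no MEF gene had an adjusted p certain to be under 0.05, so the Ptprv and Cbr2 values do not pass that limit. Of the 27 DREAM genes, 9 are listed in MEF and all 9 were lower, beside 0.223% of protein-coding names listed as lower.

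No splicing event in any member is listed in either cell type. The deposited splicing tables name 222 genes in NPC and 60 in MEF whose exon or intron use differed within a pair of libraries. The pathway lists searched held 55 p53 targets and regulators, 19 AKT, AMPK and mTORC1 genes and 20 paralogs. In these lists the events were in Mdm2, Mdm4 and Tsc1 in NPC and in Mdm2 and Tsc2 in MEF. The inclusion level of the Mdm4 exon was 0.431, 0.512 and 0.476 in the 3 NPC libraries with 4-OHT. In the 3 with ethanol it was 0.673, 0.740 and 0.717. Such events were listed for a difference within a pair, so these values are a description of the listing. The members' rise was measured on total reads of each gene.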

How the data were processed

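RNA of 12 libraries was prepared with the TruSeq RNA v2 kit, per the labels. The submitters' processing notes name CASAVA 1.8, TopHat2 2.03, Bowtie2 2.0.0.6, Cuffdiff 2.02 and the build mm9. The authors deposited 1 RPKM value per group, its log2 fold change and an unadjusted p-value, for listed genes only. How libraries were scaled is not stated, and depth is unknown. Splicing tables hold the authors' read counts, inclusion fractions and a score for the difference between libraries, per the file headers.

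Log2 fold changes were recomputed from RPKM without a pseudocount (at most 1.18e-05 from the deposited values). No test of replicates was possible. Standard errors came from dividing each log2 fold change by the normal quantile of its p-value, with p-values of 0 set to 2.22e-16, so those errors are upper limits. The adjusted p is a Benjamini-Hochberg upper bound counting all 55341 GENCODE vM21 gene names as tested. The bound and the motif scan were tested on simulated data. Older symbols were matched through RefSeq, which added Pidd1 (as Lrdd). Python 3.11.15, pandas 2.3.3 and scipy 1.17.1 were used.

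The members and lists were chosen with earlier results of these data known. Named were all 8 members, the 12 other p53 genes with the largest absolute log2 fold change at 1 RPKM or more, the 3 such genes of each other list, all listed paralogs and the 3 genes nearest Cdkn1a; 1 gene that this rule names is not reported here. No list was tested as a set.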

Additional observations from a re-analysis of the deposited data

How the results depend on the processing

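The count of 8 members higher in NPC was the same with p under 0.01, with an absolute log2 fold change of at least 1, with at least 1 or 5 RPKM in the higher group, and with the adjusted bound under 0.05. The count in MEF was 0 under each of these. Of the other p53 genes, 21 as listed, between 16 and 20 were higher under the same limits. A pseudocount of 0.1 or 1 RPKM lowered each member's log2 fold change, by at most 0.12. No paired analysis was possible because the expression tables hold 1 value per group and no member has a listed splicing event, so leaving out a library and the planned splicing alternatives were not run either. The fold-change ranks depend on a minimum level, an alternative chosen after seeing the data: the last of the 8, at rank 505 of 1367 with no minimum, stood at 206 of 824 genes with at least 1 RPKM and at 24 of 153 with at least 20 RPKM with 4-OHT. Dcxr, Ddit4l and Sesn2 were under 20 RPKM with ethanol and pass that minimum through the group in which they rose. Depth is unknown, and scaling between libraries could not be varied.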

Other observations

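Of the 16 nearest protein-coding neighbours of the members in GENCODE, 1 is listed in NPC, beside 9.71% of all protein-coding names. It is Ccne2, which encodes cyclin E2 and adjoins Trp53inp1: it stood at 9.15 RPKM with 4-OHT and 17.7 RPKM with ethanol (log2 fold change -0.95), while Trp53inp1 had a log2 fold change of 1.40. Srsf3, a splicing factor gene next to Cdkn1a, is not listed in NPC. Cbr2 adjoins Dcxr as well as resembling it. Dcxr is listed in NPC alone and Cbr2 in MEF alone, with opposite signs (1.72 and -0.84 on the log2 scale). The Cbr2 change had a Cuffdiff p of 0.0225 and did not hold after adjustment over all gene names. No value of either gene in the remaining cell type is listed.

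Among regulators of the pathway, a Tsc1 splice-site event in NPC had inclusion levels of 0.290 and 0.235 in 2 libraries with 4-OHT and 0.908 and 0.732 in the paired libraries with ethanol, from 9 and 33 reads with 4-OHT and 13 and 26 with ethanol. TSC1 restrains mTORC1, as the products of Sesn2 and Ddit4l do. The third pair is not listed, and Tsc1 is not among the genes listed as changed in expression.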
